A study of Mus musculus with 5 samples.

Results

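Ifi27, Ifi27l2a, Ifitm1, Ifitm2, Ifitm3 and Bst2 are interferon-related genes for small membrane proteins. These 6 genes of the 16498 in the table of single aortic cells were taken by name, and they were grouped after earlier results of these data had shown Ifi27l2a, Ifitm3 and Bst2 higher in libraries labelled Oasl1-/-Apoe-/-. The levels that chose them are therefore described between the groups with no test. The cells, sorted as live by DAPI from the atherosclerotic aortic arch, were sequenced as 5 droplet libraries that count the 3′ ends of transcripts. By the labels, 2 libraries came from Oasl1+/+Apoe-/- mice (called Apoe-/- here) and 3 from Oasl1-/-Apoe-/- mice, all on normal chow for 28 weeks and pooled (6 mice by the design text, which does not say whether per library or per group). Both groups lack Apoe, and the Oasl1 deletion is carried by every cell, not by a chosen cell type. The age, sex and number of mice behind each library are not given in the labels, so the spread between libraries may be technical in part.

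Type I interferon binds a receptor shared by nearly all cells and, through a kinase cascade and the factor IRF9, switches on a large set of genes by way of a DNA element of GAAA repeats. The Ifitm proteins sit in the plasma membrane and in endosomes and lysosomes, where they hinder the fusion of enveloped viruses with the cell's membrane. Bst2 (tetherin) is anchored at both ends and holds budding virus particles on the cell surface. Ifi27 and Ifi27l2a belong to the ISG12 family of small hydrophobic proteins, found mainly on mitochondrial and other inner membranes. OASL1, the protein removed in the second group, is known to hold back the translation of Irf7, a factor that drives interferon production. In cultured mouse and human aortic endothelial cells the study reported no significant change of the type I interferon pathway when this protein was lost or lowered.

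The genes lie in 3 places of the genome (GENCODE release 21, GRCm38, the mm10 build of the files). Ifi27 (ENSMUSG00000064215, chr12:103434211-103440239, plus strand) and Ifi27l2a (ENSMUSG00000079017, chr12:103442167-103443680, minus strand) are 1928 bases apart. Ifitm2 (ENSMUSG00000060591, chr7:140954837-140955987, minus strand), Ifitm1 (ENSMUSG00000025491, chr7:140967221-140969825, plus strand) and Ifitm3 (ENSMUSG00000025492, chr7:141009586-141010770, minus strand) share a cluster. Bst2 (ENSMUSG00000046718, chr8:71534255-71537456, minus strand) stands by itself.

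RefSeq promoter windows, 250 bases before to 50 after the start (GRCm38.p6), were matched for 4 of the 6 genes and are shown because the Ifitm genes share a cluster and Ifitm3 and Bst2 were higher in most cell types. No window was used for Ifi27 and Ifi27l2a. The windows are Ifitm1 chr7:140967826-140968125 (plus strand), Ifitm2 chr7:140955912-140956211 (minus), Ifitm3 chr7:141010695-141010994 (minus) and Bst2 chr8:71537423-71537722 (minus). Capitals mark every match, on either strand, to GAAANNGAAA, the core of the interferon-stimulated response element.
Ifitm1: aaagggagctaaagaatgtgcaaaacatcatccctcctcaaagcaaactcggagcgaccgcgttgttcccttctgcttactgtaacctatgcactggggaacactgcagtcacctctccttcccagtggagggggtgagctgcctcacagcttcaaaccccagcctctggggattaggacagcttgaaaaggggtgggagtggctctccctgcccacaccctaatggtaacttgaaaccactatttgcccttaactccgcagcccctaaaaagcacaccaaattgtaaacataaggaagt
Ifitm2: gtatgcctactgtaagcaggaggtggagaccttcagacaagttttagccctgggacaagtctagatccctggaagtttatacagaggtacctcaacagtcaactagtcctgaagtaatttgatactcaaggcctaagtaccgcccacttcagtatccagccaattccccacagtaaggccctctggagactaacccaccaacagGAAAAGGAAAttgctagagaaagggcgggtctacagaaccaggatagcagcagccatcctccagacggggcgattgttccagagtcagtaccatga
Ifitm3: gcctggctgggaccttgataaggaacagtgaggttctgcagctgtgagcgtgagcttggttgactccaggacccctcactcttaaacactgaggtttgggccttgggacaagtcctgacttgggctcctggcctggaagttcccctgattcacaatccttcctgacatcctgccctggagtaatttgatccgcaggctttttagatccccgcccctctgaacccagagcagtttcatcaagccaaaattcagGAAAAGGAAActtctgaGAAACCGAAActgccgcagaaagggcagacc
Bst2: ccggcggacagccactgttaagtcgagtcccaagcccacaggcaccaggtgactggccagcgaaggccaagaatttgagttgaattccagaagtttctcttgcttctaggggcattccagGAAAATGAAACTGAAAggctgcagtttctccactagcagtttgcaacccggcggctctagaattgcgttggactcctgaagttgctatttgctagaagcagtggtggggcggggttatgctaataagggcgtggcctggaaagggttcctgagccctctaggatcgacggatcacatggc

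The motif GAAANNGAAA was present in 1131 of 32851 RefSeq promoter windows of the same length (3.44%). The Ifitm3 window held it at 2 places, GAAAAGGAAA and GAAACCGAAA, both just after the start. The Bst2 window held overlapping matches GAAAATGAAA and GAAACTGAAA, upstream of the start, and the Ifitm2 window held GAAAAGGAAA once. The Ifitm1 window did not hold these letters, and GENCODE places the start of the Ifitm1 gene further upstream than this window. Another motif, TTCNNNGAA, was also searched and is not marked by capitals. It was present in 2726 of the 32851 windows (8.3%). The Ifitm3 window held it as TTCTGAGAA and the Bst2 window as TTCCAGGAA, and the Ifitm1 and Ifitm2 windows did not hold it. All these matches are letters in a window and not measured sites.

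The libraries held 3212 to 4338 cells and 16959976 to 19813039 unique molecular identifiers (UMIs) each, with a median of 4495 to 5186.5 UMIs per cell. Levels are given as CP10K, the UMIs of a gene per 10000 UMIs of the cell, averaged over the cells of a library and cell type. A 3′ tag is counted once per molecule, so these levels carry no scaling by gene length. Of 18260 cells, 16998 were assigned to a cell type by fixed marker genes, none of them a member, and 897 cells had a lead over the next type of 0 to 0.2 on the marker score. The types with at least 20 cells in every library were smooth muscle cells (10356), macrophages (3127), endothelial cells (1406), fibroblasts (1047), NK and T cells (658) and monocytes (160). The summed CP10K of a type's own markers was at least 581 in smooth muscle cells, 205 in macrophages, 222 in fibroblasts, 95.7 in NK and T cells, 71.2 in endothelial cells and 29.5 in monocytes. The same marker sums reached at most 41.2, 14.1, 12.2, 0.38, 1.14 and 6.45 in the other 5 types. Gated fibroblasts lay in more than 1 cluster. They made up 58.7% of a cluster of 996 cells with 4 of the 8 fibroblast markers raised. A cluster of 390 cells with 7 raised was 89.2% gated fibroblasts. They numbered 119 in each Apoe-/- library and 267, 272 and 270 in the others. The part of this makeup in the fibroblast differences was not tested. In monocytes labelled Oasl1-/-Apoe-/- replicate 1 the neutrophil markers summed to 80.7 CP10K, against at most 0.624 in the monocytes of the other libraries. The median mitochondrial share of a cell's UMIs was 4.91% and 5.004% in the Apoe-/- libraries and 3.90% to 4.03% in the others, with no overlap. Erythrocyte markers (5 genes, summed) were higher in both Apoe-/- libraries in every type but smooth muscle cells, at 74.3 and 82.9 CP10K against 0.967 to 31.3 in NK and T cells and 22.03 and 24.3 against 0.614 to 13.1 in macrophages. The part of either in the results was not tested. Between libraries 165 cell barcodes were shared (331 cells). UMIs of Oasl1 were more numerous in the libraries labelled Oasl1-/-Apoe-/- (257 to 315 per library) than in the Apoe-/- libraries (16 and 27). By the study's methods the knockout removes the promoter and exon 2, a part that 3′ tags do not read. That alone does not account for a higher count, and the reason was not tested. The labels were thus not checked by this gene, and the direction of every group difference rests on them.

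Ifi27l2a had the widest log2 difference between the groups of the 6 genes in every type but fibroblasts. Its level in smooth muscle cells was 0.176 and 0.194 CP10K in the Apoe-/- libraries and 2.66, 3.67 and 3.24 in the libraries labelled Oasl1-/-Apoe-/-. The ratio of the group means was 17.2, and the difference was 3.77 on the log2(CP10K + 0.05) scale, which is used for all log2 differences below and understates changes of low levels. A UMI of Ifi27l2a was found in 4.01% of smooth muscle cells (Wilson 95% interval 3.54 to 4.55) in the Apoe-/- libraries and in 33.4% (32.0 to 34.8) in the others. With every cell thinned to 1000 UMIs the shares were 1.36% and 17.1%. These intervals cover counting error only.

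The other cell types gave the same order of groups for Ifi27l2a. Endothelial cells held 0.152 and 0.289 CP10K against 2.36, 3.72 and 2.80, a log2 difference of 3.50. Macrophages held 2.05 and 1.87 CP10K against 13.5, 14.4 and 15.4, a log2 difference of 2.85. Their share of cells with a UMI was 30.2% (27.2 to 33.3) and 86.4% (84.9 to 87.7). The level was highest in monocytes, at 11.8 and 9.29 CP10K against 37.2, 43.3 and 48.6, and all 98 monocytes of the libraries labelled Oasl1-/-Apoe-/- had a UMI. NK and T cells held 3.02 and 2.23 CP10K against 14.5, 12.1 and 14.3. Fibroblasts had the smallest log2 difference, 1.01, from 2.50 and 3.91 CP10K to 5.65, 7.47 and 6.10. In the 6 types no library of the one group overlapped the other.

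Ifi27, the neighbour of Ifi27l2a and the other ISG12 gene, behaved differently. In smooth muscle cells its level was 4.20 and 3.93 CP10K in the Apoe-/- libraries and 6.36, 6.26 and 6.23 in the others, a ratio of 1.55. In macrophages the order was turned, with 2.19 and 2.51 CP10K against 1.81, 1.74 and 1.92, a log2 difference of -0.35. Endothelial cells held 4.05 and 3.92 CP10K against 4.08, 4.81 and 4.34, where the lowest of the second group was close to the highest of the first. NK and T cells held 2.45 and 2.58 CP10K against 2.75, 3.63 and 4.37. In fibroblasts (4.53 and 3.43 against 4.23, 3.83 and 4.12) the groups overlapped. The level in monocytes rested on 2 to 10 UMIs per library. The share of Ifi27 in the summed Ifi27 and Ifi27l2a UMIs of macrophages was 60.3% and 61.9% in the Apoe-/- libraries and 13.0% to 13.8% in the others. For smooth muscle cells it was 95.9% and 95.5% against 62.1% to 69.7%. Ifi27l2a has a near copy, Ifi27l2b, with which its reads could have been split or lost.

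Ifitm3, the best known of the antiviral Ifitm genes, was higher in every library labelled Oasl1-/-Apoe-/- in 5 of the 6 types. Macrophages had the largest difference, from 3.23 and 3.19 CP10K to 14.3, 13.6 and 13.8, a ratio of 4.32 and a log2 difference of 2.09. The share of macrophages with an Ifitm3 UMI was 47.1% (43.8 to 50.4) and 82.0% (80.3 to 83.5), or 22.6% and 53.6% after thinning. Smooth muscle cells held 3.12 and 2.82 CP10K against 5.74, 6.44 and 6.35, a log2 difference of 1.04. Endothelial cells held 21.5 and 21.2 CP10K against 36.3, 35.4 and 35.3, a log2 difference of 0.74. Fibroblasts (21.7 and 21.1 against 31.9, 33.0 and 30.6) and monocytes (39.9 and 51.8 against 63.0, 62.8 and 64.5) started high and differed by 0.57 and 0.48 on the log2 scale. NK and T cells were the exception: their level was 0.160 and 0.254 CP10K against 0.390, 0.197 and 0.316, and the groups overlapped. Only 3.85% and 4.41% of these cells had an Ifitm3 UMI, with median depths of 1769.5 UMIs in NK and T cells and 4931 in smooth muscle cells, and this level cannot be told from background. The statement that Ifitm3 is higher in every cell type was thus not met in NK and T cells.

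Ifitm2 is expressed beside Ifitm3 and hinders a similar range of viruses. Its differences were small. Smooth muscle cells held 5.83 and 5.44 CP10K against 6.25, 6.67 and 6.44, and macrophages 4.79 and 4.72 against 5.98, 6.95 and 6.05, log2 differences of 0.19 and 0.40 with no overlap. In endothelial cells (18.9 and 16.4 against 18.4, 19.2 and 19.2) the groups overlapped. In monocytes the order was turned, with 26.5 and 27.8 CP10K against 24.1, 25.8 and 23.1. NK and T cells had at most 0.277 CP10K in any library.

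Ifitm1, which sits mostly at the cell surface, was low outside monocytes, neutrophils and dendritic cells. Monocytes held 0.874 and 2.94 CP10K in the Apoe-/- libraries and 2.70, 10.5 and 4.46 in the others, so the groups overlapped. The highest of these values was in replicate 2 of the second group, whose monocytes had few neutrophil markers. Smaller gated sets, with under 20 cells in a library, held more: 21.6 and 45.8 CP10K against 32.2, 24.8 and 20.2 in neutrophils (11 to 18 cells per library) and 4.02 and 8.91 against 13.4, 1.53 and 15.3 in dendritic cells (11 to 15 cells per library). None of the 71 gated neutrophils lay in a cluster of that name. In smooth muscle cells, endothelial cells, fibroblasts and macrophages every library was at or below 0.292 CP10K. Fibroblasts had no Ifitm1 UMI in the 238 cells of the Apoe-/- libraries, which allows a share of up to 1.26%, and held 0.134 ± 0.103 CP10K (SD, n = 3) in the others, from 0.0564 upward. Smooth muscle cells held 0.0117 and 0.00956 CP10K against 0.0188, 0.0203 and 0.0615, and macrophages 0.0427 and 0.0309 against 0.0408, 0.0808 and 0.0991, where the groups overlapped. No UMI was found in 658 NK and T cells, which allows a share of up to 0.456% of cells with a UMI.

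Ifitm1, Ifitm2 and Ifitm3 are close paralogs that the 3′ reads may not always have told apart, so their makeup was set side by side in the same cells. Ifitm3 made up 38.2% and 38.1% of the UMIs of the 3 genes in macrophages of the Apoe-/- libraries and 69.4%, 66.2% and 69.0% in the others. Its part in smooth muscle cells was 35.5% and 34.7% against 48.9%, 50.7% and 51.3%, and in endothelial cells 54.6% and 57.0% against 67.8%, 67.1% and 68.4%. In fibroblasts the difference was smaller, 61.8% and 64.1% against 69.5%, 70.6% and 70.2%. In each of these 4 types the groups did not overlap and the balance moved from Ifitm2 to Ifitm3.

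**Figure D1:**
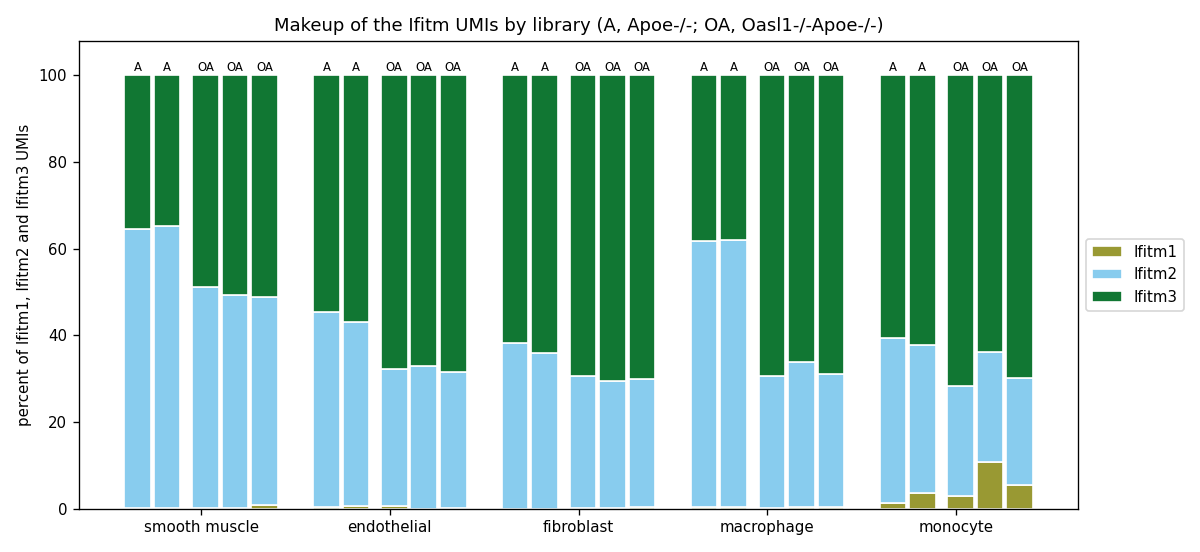
Stacked bars, 1 per library, show the percent of Ifitm1, Ifitm2 and Ifitm3 UMIs in 5 cell types (A, Apoe-/-; OA, labelled Oasl1-/-Apoe-/-). The Ifitm3 part was larger in every OA library, most in macrophages, and Ifitm1 was visible only in monocytes.

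Bst2 was higher in every library labelled Oasl1-/-Apoe-/- in all 6 types, with log2 differences between 0.85 and 1.57. Fibroblasts had the largest, from 1.65 and 2.17 CP10K to 6.02, 5.85 and 5.30. NK and T cells followed, from 1.10 and 1.19 to 3.55, 2.90 and 3.09 CP10K. Macrophages held 4.16 and 3.33 CP10K against 9.23, 8.68 and 8.50, and endothelial cells 4.34 and 4.31 against 8.45, 8.03 and 7.11. In smooth muscle cells, where Bst2 was lowest, it was 0.503 and 0.448 CP10K against 0.977, 1.15 and 1.10, and 19.2% (18.2 to 20.2) and 35.7% (34.3 to 37.0) of cells had a UMI. Monocytes held 1.86 and 2.42 against 5.13, 6.01 and 4.45 CP10K, from 24 to 91 UMIs per library. Without the library whose monocytes held neutrophil markers, the log2 difference in monocytes was 1.27 for Bst2 (1.26 with it), 2.13 for Ifi27l2a (2.03), 0.48 for Ifitm3 (0.48), -0.15 for Ifitm2 (-0.16), 2.05 for Ifitm1 (1.61) and -0.41 for Ifi27 (-1.08).

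**Figure D2:**
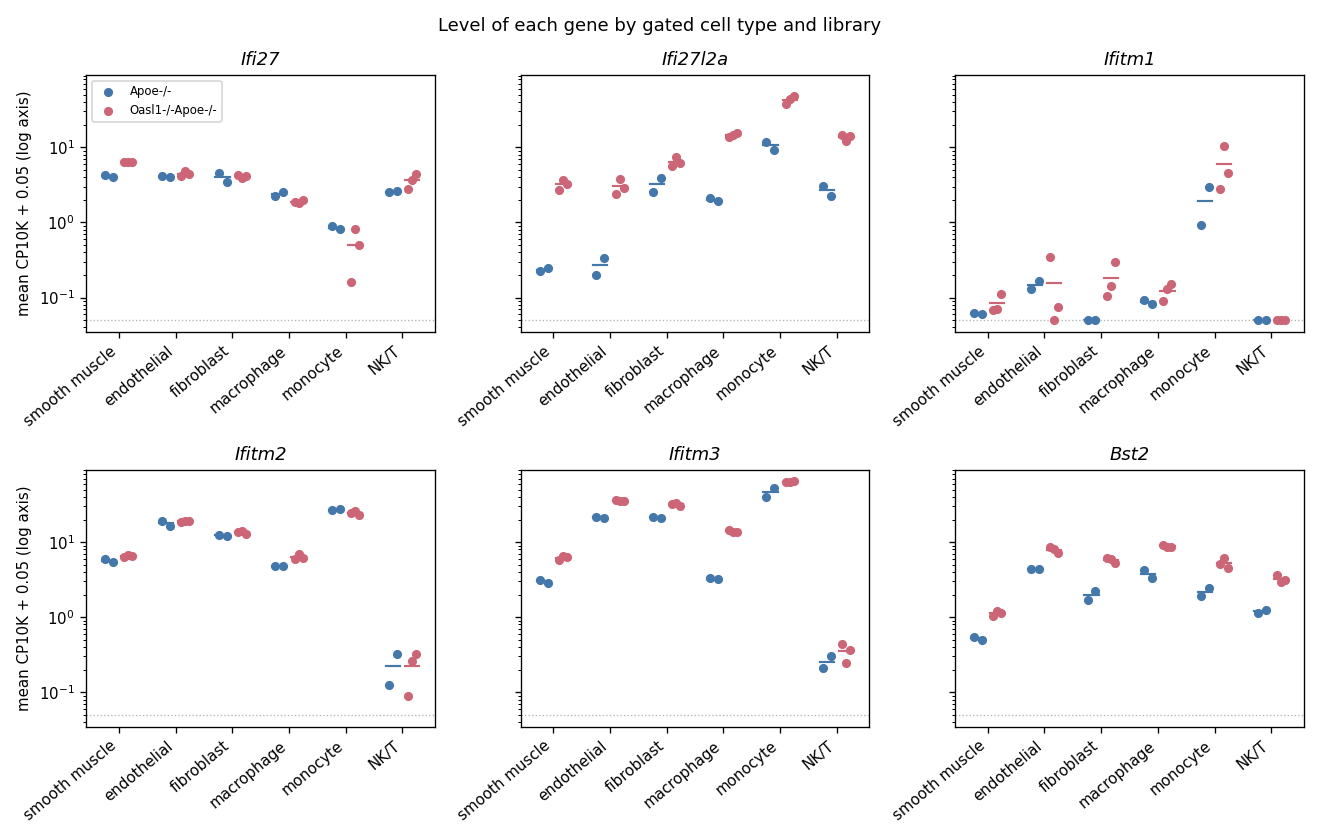
Mean CP10K + 0.05 (log axis) of each gene in 6 cell types; every point is a library, the bars are group means and the dotted line marks a level of 0. Ifi27l2a and Bst2 are separated by group in all 6 types and Ifitm3 in 5, while Ifi27 and Ifitm2 lie close together.

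Counted over the 36 pairs of a gene and a type, 25 had every library labelled Oasl1-/-Apoe-/- above both Apoe-/- libraries, 2 had every one below (Ifi27 in macrophages, Ifitm2 in monocytes) and the rest overlapped or were at 0. All 6 genes were higher in smooth muscle cells, beside 22.3% of all genes tested. In endothelial cells 4 were higher (13.6% of all genes), in fibroblasts 5 (18.3%; Ifitm1 there stood against a count of 0 and passed the filter through the libraries labelled Oasl1-/-Apoe-/-), in macrophages 4 (26.2%), in monocytes 3 (11.6%) and in NK and T cells 3 (16.4%). Among all genes the share that was lower with no overlap was 15.5% in smooth muscle cells, 13.6% in endothelial cells, 16.1% in fibroblasts, 17.8% in macrophages, 12.6% in monocytes and 10.9% in NK and T cells. The genes were picked on this contrast, so nothing is read from these shares. Of the 6 genes, Ifitm1 was below the filter of 0.05 CP10K in smooth muscle cells and in NK and T cells.

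The size of the difference was set against that in smooth muscle cells of the same libraries, again as a description. For Ifitm3 it was larger in macrophages, by 1.05 (SE 0.12) on the log2 scale, while endothelial cells stood at -0.31 (SE 0.16) and fibroblasts at -0.48 (SE 0.18) relative to smooth muscle cells. For Ifi27l2a the values were -2.76 (SE 0.21) in fibroblasts and -0.93 (SE 0.15) in macrophages, and its Apoe-/- level in smooth muscle cells was under 0.2 CP10K. For Bst2 the values were 0.13 (SE 0.14) in macrophages, -0.25 (SE 0.18) in endothelial cells and 0.47 (SE 0.23) in fibroblasts. For Ifi27 the value in macrophages was -0.98 (SE 0.14). Over all genes limma called few such differences: 4 of 9661 in endothelial cells (0.0414%), 5 of 9465 in fibroblasts (0.0528%) and 413 of 9254 in macrophages (4.46%), with an unadjusted p under 0.05 for 834, 1367 and 2079.

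**Figure D3:**
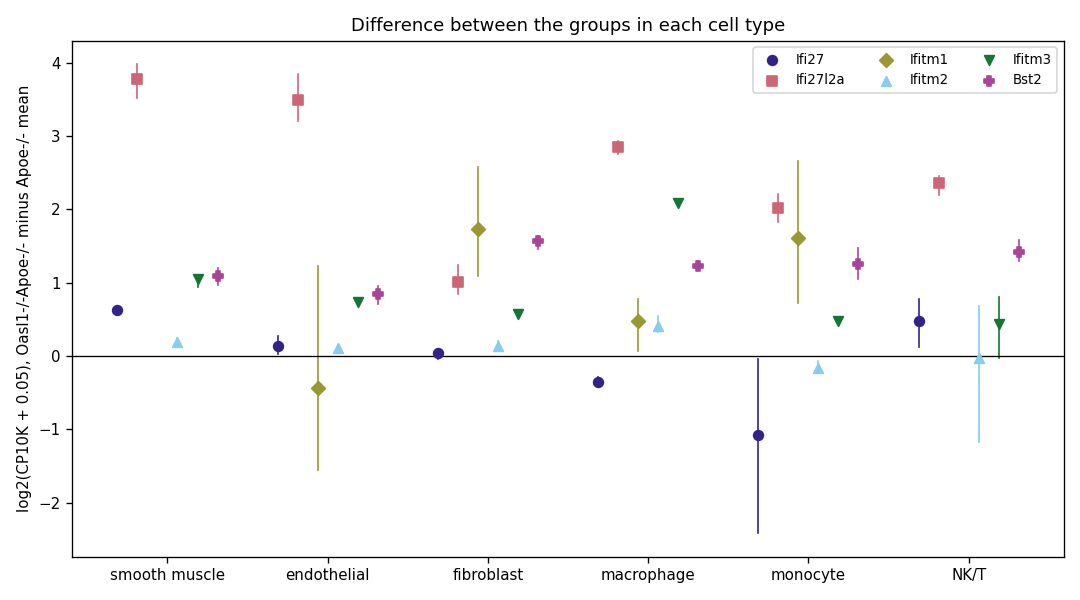
Difference in log2(CP10K + 0.05) between libraries labelled Oasl1-/-Apoe-/- and the mean of the Apoe-/- libraries in 6 cell types. Markers are means over 3 libraries and lines span their lowest to highest value; Ifi27l2a stood at 3.77 in smooth muscle cells and 1.01 in fibroblasts, and genes below the filter are left out.

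The number of these genes seen per cell is given as a description only, since the genes were chosen on the contrast of the groups. After thinning to 1000 UMIs, macrophages had a UMI of 1.20 and 1.11 of the 6 genes on average in the Apoe-/- libraries and of 2.17, 2.20 and 2.18 in the others. Macrophages with none fell from 28.9% and 28.7% to between 7.95% and 8.23%. In NK and T cells the cells with none were 58.5% and 66.3% against 27.4%, 23.8% and 24.3%. Smooth muscle cells with a UMI of at least 3 of the genes were 5.25% and 4.16% against 16.6%, 17.8% and 18.0%. The groups did not overlap in these measures, which the choice of the genes made likely, so nothing is read from it.

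Where the genes are expressed was tested between cell types of the same library, which the choice of genes did not use. Each type was set against smooth muscle cells with limma, library as a block, over 5 pairs and with p adjusted over all genes tested. In endothelial cells Bst2 was higher by 2.91 (SE 0.07, adjusted p = 1.92e-14), Ifitm3 by 2.64 (SE 0.06, adjusted p = 3.93e-15) and Ifitm2 by 1.58 (SE 0.04, adjusted p = 2.11e-14), each in 5 of 5 libraries, beside 37.8% of all genes called higher. Ifi27 was lower there by a log2 difference of -0.32 (adjusted p = 0.00271; 26.9% of genes were called lower). Ifi27l2a did not pass (-0.01, 95% interval -0.21 to 0.20, adjusted p = 0.942). With summed UMIs and limma-voom it was lower in endothelial cells, at -0.30 (adjusted p = 0.00168).

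Fibroblasts resembled endothelial cells in the Ifitm genes. Ifitm3 was higher than in smooth muscle cells by 2.55 (SE 0.08, adjusted p = 3.13e-11) and Bst2 by 2.17 (SE 0.11, adjusted p = 2.16e-09). Ifi27l2a was higher by 2.10 (SE 0.39, adjusted p = 0.000542) and Ifitm2 by 1.09 (SE 0.05, adjusted p = 5.57e-10). Over all genes 25.6% were called higher in fibroblasts and 26.6% lower. The Ifi27l2a difference was wider in the Apoe-/- libraries, at 3.20 CP10K in fibroblasts and 0.185 in smooth muscle cells. In the other libraries the means were 6.41 and 3.19 CP10K. Macrophages had Bst2 higher than smooth muscle cells by 2.92 (SE 0.06, adjusted p = 4.69e-11). Ifi27l2a was higher there by 2.54 (SE 0.16, adjusted p = 1.37e-07) and Ifitm3 by only 0.74 (SE 0.17, adjusted p = 0.00256). Of all genes, 29% were called higher and 54.5% lower in macrophages. Macrophages were not tested against endothelial cells or fibroblasts. In the Apoe-/- libraries alone Ifitm3 did not differ past the threshold between macrophages and smooth muscle cells (0.11, adjusted p = 0.142). Ifitm2 did not pass in macrophages (-0.12, adjusted p = 0.0764), and the call depended on the setting. It was called lower with limma-voom (-0.24, adjusted p = 0.000143), without Oasl1-/-Apoe-/- replicate 2 (-0.16, adjusted p = 0.0323) and in the Apoe-/- libraries alone (-0.24, adjusted p = 0.00183). It was called higher (0.23, adjusted p = 0.00279) with libraries centred on the median gene, where the median of all genes lay at -0.32 before centring.

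Among the 6 types, monocytes had the highest levels of 4 of the genes. Smaller gated sets held more of some. Neutrophils had 50.3 and 37.9 CP10K of Ifitm2 (group means). The 7 lymphatic endothelial cells, all from libraries labelled Oasl1-/-Apoe-/-, had 95.5 to 109 CP10K of Ifitm3 per library. None of the 71 gated neutrophils, of these 7 cells or of the 160 gated monocytes lay in a cluster of that name. These sets rest on the marker gate alone. In monocytes limma put Ifitm1 above smooth muscle cells by 5.49 (SE 0.44, adjusted p = 7.02e-05) and Ifi27l2a by 4.44 (SE 0.36, adjusted p = 6.78e-05). The mean of Ifitm1 in smooth muscle cells was 0.0244 CP10K, under both the filter and the pseudocount of 0.05 CP10K. It passed the filter only through monocytes (4.29 CP10K), which set the direction, and its size depends on the pseudocount. Nothing is read from the Ifitm1 call. Ifitm3 was higher in monocytes by 3.58 (SE 0.14, adjusted p = 4.98e-06) and Ifitm2 by 2.05 (SE 0.09, adjusted p = 6.93e-06). Each was higher in 5 of 5 libraries, beside 19% of genes called higher and 42.9% lower. Ifi27 was lower in monocytes, by a log2 difference of -3.30 (SE 0.46, adjusted p = 0.00111). NK and T cells lacked most of the Ifitm signal, with Ifitm2 at -4.95 (SE 0.29, adjusted p = 1.84e-06) and Ifitm3 at -3.94 (SE 0.20, adjusted p = 7.58e-07), while Ifi27l2a (2.65, adjusted p = 5.31e-05) and Bst2 (1.39, adjusted p = 2.04e-05) were higher, beside 26.5% of genes called higher and 38.7% lower. In these 2 types the median of all genes lay at -0.62 and -0.22. Ifi27 was lower than in smooth muscle cells in every type tested, at -0.39 (adjusted p = 0.00522) in fibroblasts, -1.37 (adjusted p = 2.38e-05) in macrophages and -0.77 (adjusted p = 0.000241) in NK and T cells. In the Apoe-/- libraries alone it did not pass in endothelial cells (-0.03, adjusted p = 0.781) or fibroblasts (-0.04, adjusted p = 0.806).

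**Figure D4:**
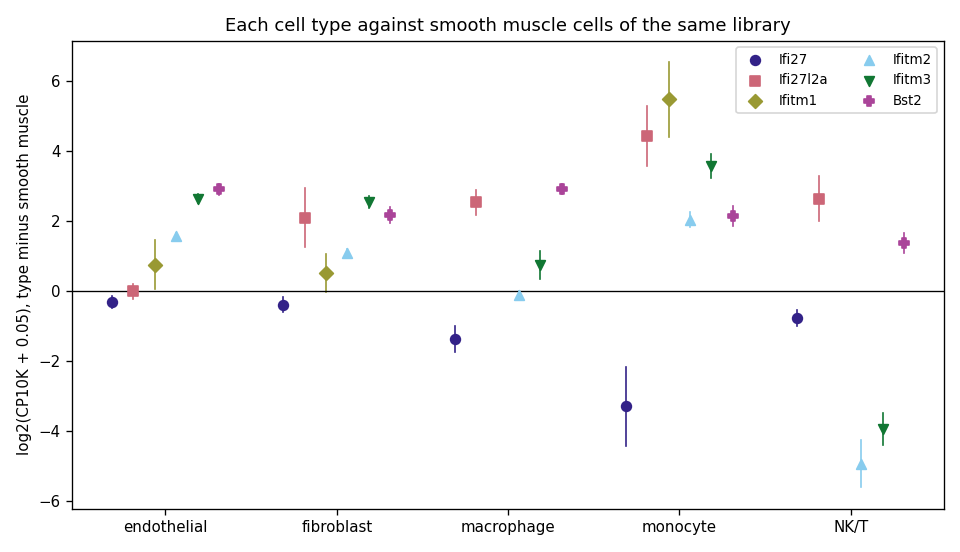
Log2 difference of 5 cell types from smooth muscle cells of the same library, with 95% intervals from limma over 5 libraries. Ifitm2 and Ifitm3 were highest in monocytes, endothelial cells and fibroblasts and near absent from NK and T cells, and Ifi27 was highest in smooth muscle cells.

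In the order of levels among the 6 types, Ifitm3 in the Apoe-/- libraries ran from monocytes (45.9 CP10K) through fibroblasts and endothelial cells (both 21.4, overlapping) to macrophages (3.21), smooth muscle cells (2.97) and NK and T cells (0.207). In the other group macrophages (13.9) stood well apart from smooth muscle cells (6.18). Bst2 led in endothelial cells (4.32 CP10K) ahead of macrophages (3.74) in the Apoe-/- libraries and in macrophages (8.81) ahead of endothelial cells (7.86) in the others. Ifi27 did not separate smooth muscle cells, endothelial cells and fibroblasts in the Apoe-/- libraries (4.06, 3.99 and 3.98 CP10K), whereas smooth muscle cells (6.28) stood above both in the others. Ifi27l2a was lowest in smooth muscle and endothelial cells in both groups, which overlapped each other.

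Macrophage RNA carried in droplets of other cells was measured by the macrophage markers (8 genes). Their summed level in smooth muscle cells was 0.257% to 0.649% of that in macrophages of the same library, and in endothelial cells 0.231% to 0.742%. Ifi27l2a in smooth muscle cells was at 8.60% to 25.4% of its level in macrophages, and Bst2 at 10.6% to 13.5%. Both genes were thus above the ratio of the summed markers in every library. The sum weighs abundant markers most, and single markers did not all lie at its ratio. The marker ratio was itself higher in the libraries labelled Oasl1-/-Apoe-/- (0.458% to 0.649%) than in the Apoe-/- libraries (0.257% and 0.283%).

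**Figure D5:**
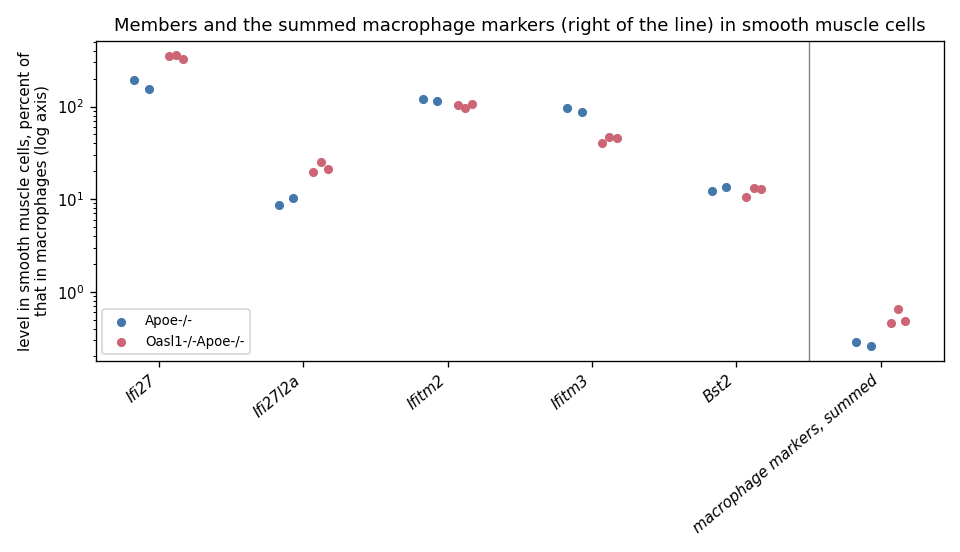
Level of 5 members and summed level of the 8 macrophage markers in smooth muscle cells as a percent of that in macrophages of the same library (log axis), 1 point per library. The members lie at or above 8.60% and the summed markers at or below 0.649%.

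The genes whose profile over the 30 means of a type and library was most like each member were listed by Pearson's r, among 9864 genes with a mean of at least 0.05 CP10K. The profiles share libraries and cell types, so r is a description. Ifi27l2a was closest to Zbp1 (r = 0.87), Isg15 (0.84) and Oas1a (0.82), all interferon-induced genes. Bst2 was closest to Tapbp (0.95), a chaperone of MHC class I loading, then Ube2l6 (0.87), the enzyme that conjugates ISG15, and Slfn5 (0.85). Ifitm3 and Ifitm2 were close to each other (0.96), Ifitm2 also to Plod3 (0.97) and Ltbr (0.96) and Ifitm3 to Il13ra1 (0.95) and Mgst1 (0.93). Ifitm1 went with Ifitm6, Mcemp1 and Cd177 (0.92, 0.92 and 0.91), and Ifi27 with Immp1l, Rabac1 and Insig2 (0.96, 0.92 and 0.92). Between Ifi27 and Ifi27l2a r was -0.59.

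Other genes of the pathway were counted from lists drawn up with earlier results of these data known, with limma p adjusted over all genes. Of the interferon-induced effectors outside the 6 genes (22 in the table), 20 of 22 tested rose in macrophages, 11 of 14 in smooth muscle cells, 12 of 19 in endothelial cells, 9 of 19 in fibroblasts, 4 of 19 in NK and T cells and 4 of 21 in monocytes, and none fell in any of these. Over all genes 9.78% rose in macrophages, 4.79% in smooth muscle cells, 2.26% in endothelial cells, 2.11% in fibroblasts, 1.02% in NK and T cells and 0.488% in monocytes. Those that fell made up 6.29%, 2.22%, 0.984%, 1.56%, 0.423% and 0.195% of all genes in the same order of types. The median log2 difference of this list was 1.61 in macrophages and 1.15 in smooth muscle cells, where the median of all genes was 0.05 and 0.01. Of 10 interferon signalling genes 6 of 10 tested rose in macrophages, 3 of 9 in smooth muscle cells, 3 of 10 in endothelial cells, 3 of 10 in NK and T cells and 2 of 10 in fibroblasts. In monocytes limma and limma-voom called 0 of 9, and 5 had an unadjusted p under 0.05.

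The largest changes within the lists were as follows. Lgals3bp, a secreted binder of galectins, rose in smooth muscle cells by 2.04 (SE 0.10, adjusted p = 1.00e-08), from 0.0694 to 0.438 CP10K, and Ifit1, which binds uncapped viral RNA, by 1.83 (SE 0.10, adjusted p = 5.65e-08). In endothelial cells Usp18, the protease that removes ISG15 and restrains the interferon receptor, rose by 2.48 (SE 0.30, adjusted p = 3.94e-10) and Rsad2 (viperin) by 2.04 (SE 0.35, adjusted p = 9.96e-06). In macrophages Ifit3 rose by 2.61 (SE 0.16, adjusted p = 2.25e-08) and Rtp4 by 2.36 (SE 0.10, adjusted p = 8.94e-10).

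Genes of the compartments in which the Ifitm proteins work gave few calls in the same direction. Of 8 late endosome and lysosome membrane genes, 4 fell and 1 rose in macrophages (6.29% of all genes fell there), 2 rose in smooth muscle cells and no other of these types had a call with limma, while limma-voom called 2 in endothelial cells. Cd63, a tetraspanin of late endosomes, fell in macrophages from 32.2 to 22.6 CP10K, a log2 difference of -0.51 (SE 0.05, adjusted p = 4.15e-06), and Npc1, the lysosomal cholesterol exporter, from 0.428 to 0.274, a log2 difference of -0.54 (SE 0.15, adjusted p = 0.026). Of 7 genes that modify or trim the IFITM and BST2 proteins, 1 of 7 tested rose in smooth muscle cells and 1 of 6 fell in macrophages. Of the family relatives, 4 were in the table and 1 or 2 were tested in any type; Ifi27l2b rose in endothelial cells by 1.59 (SE 0.28, adjusted p = 2.51e-05), from 0.0839 to 0.349 CP10K.

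Genes within 100 kb of a member were counted by cell type. In smooth muscle cells, 2 neighbours of the Ifi27 pair, 5 of the Ifitm cluster and 9 of Bst2 were tested. Of these only Asb2, which lies 78210 bases from Ifi27, passed with limma, at a log2 difference of -0.23 (SE 0.06, adjusted p = 0.0344). Over all genes 2.22% were called lower in smooth muscle cells. In endothelial cells limma called 2 of 17 neighbours, both higher, beside 2.26% of all genes called higher, and limma-voom called 3. Plvap, which lies 22503 bases from Bst2 and encodes a protein of endothelial fenestrae and caveolae, rose from 3.12 to 5.42 CP10K. Its log2 difference with limma was 0.78 (SE 0.11, adjusted p = 3.88e-08). Ifi27l2b, given above, was the other. The study lists Plvap among genes raised in the endothelial sub-cluster mainly filled by Oasl1-/-Apoe-/- cells. The part of this makeup was not tested. In fibroblasts limma called 1 of 16 neighbours, beside 2.11% of all genes called higher, and limma-voom called 0. This was Colgalt1, 73542 bases from Bst2, which rose by 0.73 with limma (SE 0.17, adjusted p = 0.0341). In macrophages limma called 0 of 16 neighbours, with 7 at an unadjusted p under 0.05, and limma-voom called 6. In monocytes and in NK and T cells both called 0, of 13 and 14, with 0 and 1 at an unadjusted p under 0.05.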

How the data were processed

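Reads of the 3′ libraries were mapped by the authors to mm10 with Cell Ranger 3.1.0, and cells were filtered with Seurat 4.0.3 (versions per the submitters' processing notes). Per the study's methods doublets had been removed, so no doublet caller was run. The deposited table, as normalised by the authors, holds ln(1 + x), a natural log, where x is a gene's UMIs per 10000 in that cell. Undoing the log gave whole UMIs for 100% of values (tolerance 0.01).

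Each cell was gated by the mean of its 3 best markers of a type, each scaled to the 0.9 quantile of cells with a UMI, with at least 3 markers found and a lead of 0.1 over the next type. These settings were chosen after cell counts had been seen. The authors' cell annotation was not used here, so differences from the study may come from rebuilt names. The mean CP10K per library and type (at least 20 cells) was analysed as log2(CP10K + 0.05) with limma 3.58.1 (R 4.3.3, trend), genes with a mean of at least 0.05, Benjamini-Hochberg threshold 0.05. Groups were compared over 2 and 3 libraries. The fit was tested on simulated data. Results were recomputed with a pseudocount of 0.2, no filter, summed UMIs with limma-voom, centring, clusters (2000 variable genes without members, 21 clusters, 19 named), a replicate block and leaving out each library. Thinning to 1000 UMIs left out 556 cells.

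The members, marker lists, gene lists and comparisons were chosen with earlier results of these data known. Genes named are the 6 members, Oasl1, the 2 largest rises and falls past the threshold over the fixed lists in smooth muscle cells, endothelial cells and macrophages, the 3 genes most like each member, and neighbours within 100 kb past the threshold in smooth muscle cells. Ifi27l2b, Plvap, Colgalt1 and the motifs of the promoter windows were named after their values were seen. Some genes are not reported here.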

Additional observations from a re-analysis of the deposited data

Results flagged for a closer look

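Ifi27 was lower in every library labelled Oasl1-/-Apoe-/- in macrophages, at -0.35 on the log2(CP10K + 0.05) scale, and higher in every one in smooth muscle cells, endothelial cells and NK and T cells. This opposite order of all libraries drew attention, but 17.8% of all genes in macrophages were also lower with no overlap. In endothelial cells the lowest level of the second group (4.08 CP10K) was close to the highest of the first (4.05). The difference between the types was not tested, since the genes were chosen on the contrast of the groups. In macrophages the Ifi27 level was 2.35 ± 0.228 CP10K (SD, n = 2) against 1.83 ± 0.0893 (SD, n = 3).

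Ifitm2 was lower in every library labelled Oasl1-/-Apoe-/- in monocytes, at -0.16 on the log2 scale, and higher in every one in smooth muscle cells, fibroblasts and macrophages. The difference between the types was again not tested. The Ifitm2 level in monocytes rested on 27 to 35 cells per library, and 12.6% of all genes were lower there with no overlap.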

How the results depend on the processing

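Of the 36 pairs of a gene and a type, 25 were higher and 2 lower in every library labelled Oasl1-/-Apoe-/-. With UMIs summed per library and type these were 23 and 3, with centring 25 and 3, and with clusters 24 and 1 of 30 pairs, as no cluster was named monocyte. Leaving out a library can only keep or raise these counts, which became 25 to 28 and 2 to 4, so it says nothing of their stability. Over all alternatives 63 single differences of a member between the groups moved by more than the spread between libraries and 362 did not. Against smooth muscle cells 13 values of members gained a call and 3 lost it, most of the gains being Ifitm1 in endothelial cells and fibroblasts. Ifitm1 was below the filter in smooth muscle cells, so nothing is read from its gains. Only Ifitm2 in macrophages against smooth muscle cells reversed, to 0.23 when libraries were centred on the median gene.

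Counts over all genes depended more on the setting. Without the filter on low genes the calls between groups were 225 in smooth muscle cells (635 with it), 157 in endothelial cells (307), 192 in fibroblasts (348) and 87 in monocytes (49), and clusters gave 476 in endothelial cells. Leaving out a library gave 286 to 843 in smooth muscle cells, 212 to 272 in endothelial cells, 134 to 760 in fibroblasts, 812 to 1631 in macrophages (1272 with all), 0 to 11 in monocytes and 38 to 196 in NK and T cells (116 with all). Genes of the lists called higher then numbered 8 to 18 in fibroblasts (11 with all), 0 to 3 in monocytes (4) and 4 to 9 in NK and T cells (7). They were 8 in monocytes without the filter and 3 in NK and T cells with limma-voom. Against smooth muscle cells the Apoe-/- libraries alone gave 3125 calls in fibroblasts (4941 with all), 2960 in monocytes (5620) and 3468 in NK and T cells (6148), and 8794 in monocytes without the filter.

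The differences of differences were unstable. In endothelial cells, macrophages and fibroblasts the calls were 4, 413 and 5. They were 43, 931 and 89 with a pseudocount of 0.2, 258, 917 and 326 with limma-voom, and 2, 199 and 0 without the filter. Clusters gave 24 in endothelial cells, and centring gave 8 in fibroblasts. Leaving out a library gave 1 to 3, 68 to 151 and 0 to 1. The cause was not tested.

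Replicate numbers did not pair the samples: the correlation of deviations was 0.015 and 0.043 for same-numbered libraries. With the number as a replicate block the calls between groups were 683, 219, 306, 1015, 44 and 102 in smooth muscle cells, endothelial cells, fibroblasts, macrophages, monocytes and NK and T cells. The differences of differences gave 0, 88 and 0. List genes higher numbered 18, 12, 11, 26, 5 and 8 in the same 6 types under the block.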
